A study of Mus musculus with 4 samples.

Results

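The genes described here encode the fibrous, elastic and basement membrane matrix of the tracheal wall outside its cartilage collagens. They are 44 genes chosen by name: collagens, elastic fibre proteins, lysyl oxidases, matrix glycoproteins, laminins, nidogens and perlecan. Of these, 42 had a probe set paired with exactly 1 gene symbol, out of 18193 such genes on the array, and Fbn1 and Loxl2 were not analysed here. Each gene is represented by its brightest probe set, by mean log2(signal + 16) over all arrays. Genes were kept where this mean reached the median of the array's non-control probe sets, equal to a signal of 396.6, and 41 of the 42 genes were kept. Lama1, the laminin alpha 1 chain, was not, with signals of 331 and 333 in wild type against 348 and 287 in the labelled knockout.

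RNA came from the trachea of mouse embryos on a C57BL/6 background at embryonic day 16, with 1 Affymetrix array per sample. There were 2 wild-type samples and 2 of the a1H knockout, numbered 1 and 2 in each genotype. By its name a1H is read as the pore-forming alpha-1H subunit of a T-type calcium channel (gene Cacna1h), and the series' design text speaks of homozygous embryos. The comparison asks which transcripts differ between the knockout and wild-type trachea. The labels do not say how the allele was made, or whether a sample was 1 embryo, a litter or a pool. P-values therefore reflect no more than how far these 4 samples scatter, and that scatter may be technical. The whole trachea was used, so fewer cells of a type and less RNA per cell cannot be told apart.

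Collagen fibrils give a tissue its tensile strength, and minor fibril collagens and fibril-associated collagens set their diameter and spacing. Elastic fibres are built from elastin on a scaffold of fibrillins and fibulins and are cross-linked by lysyl oxidases, which lets an airway recoil after it is stretched. Basement membranes are sheets of laminin and collagen IV, joined by nidogens and perlecan, under epithelium and around muscle, nerve and vessels. In the developing trachea such matrix lies in the perichondrium, the smooth muscle of the dorsal wall, the lamina propria and beneath the airway epithelium.

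Some of these genes lie side by side in the mouse genome. Sequences around or before their starts are shown for 2 such neighbourhoods because their members' signals are compared below. Col4a1 and Col4a2 encode the chains of the most widespread collagen IV molecule and are read in opposite directions from neighbouring starts. In the RefSeq promoter table (GRCm38.p6), which gives 250 bases before and 50 after each start, their windows overlap by 78 bases at chr8:11312777-11312854. The overlap spans both starts, which lie 21 bases apart, so it is not purely upstream of either gene. The GGGCGG in it lies after the start of both genes, in the direction each is read. This shared stretch is printed on the plus strand, the strand of Col4a2, with its match to GGGCGG in capitals:
Col4a1 and Col4a2: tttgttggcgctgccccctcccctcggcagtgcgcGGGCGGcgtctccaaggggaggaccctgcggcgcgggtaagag
Its GC content was 73.1%, against 53.8% over all windows of the table. Those windows are 300 bases long and lie mostly before the start, so the 2 values differ in length and position. On chromosome 10, Col6a2 and Col6a1 follow each other on the minus strand with no protein-coding gene between them, and Col18a1 lies 2 protein-coding genes further on the same strand. The 150 bases before the outermost start of each are printed on the minus strand, at chr10:76726045-76726194 for Col6a1, chr10:76623631-76623780 for Col6a2 and chr10:77166531-77166680 for Col18a1, with matches to GGGCGG on either strand in capitals:
Col6a1: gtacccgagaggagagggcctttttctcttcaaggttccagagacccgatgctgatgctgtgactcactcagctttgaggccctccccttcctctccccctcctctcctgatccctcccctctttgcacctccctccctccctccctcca
Col6a2: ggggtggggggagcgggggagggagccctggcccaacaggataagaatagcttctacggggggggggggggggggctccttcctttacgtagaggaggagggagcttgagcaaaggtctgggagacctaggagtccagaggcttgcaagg
Col18a1: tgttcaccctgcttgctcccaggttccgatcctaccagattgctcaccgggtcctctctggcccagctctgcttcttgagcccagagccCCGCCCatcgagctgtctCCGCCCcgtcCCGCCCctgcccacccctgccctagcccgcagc
Col18a1 held 3 matches, and Col6a1 and Col6a2 held none in these bases. Windows of 300 bases were found for 30 of the 44 genes, using the outermost start of each. GGGCGG or its reverse complement was in 20 of these 30 windows, or 66.7%, against 46.3% of the windows of 17492 protein-coding genes and 35.7% of all windows. CCAAT on either strand was in 13 of 30, or 43.3%, against 39.2% of protein-coding genes and 37.4% of all windows. TATAAA on either strand was in 4 of 30, or 13.3%, against 13.3% and 13.6%. The 3 motifs were searched separately and their matches may overlap, and a match describes the letters only.

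Arrays of the same genotype differed from each other. Cacna1h read 630 and 538 in wild type against 981 and 631 in the labelled knockout on its brighter probe set. Where that probe set lies relative to the deleted part is unknown, and every direction below rests on genotype labels that this gene does not check. Tracheal cell types were present: all listed markers of cartilage (8), airway smooth muscle (7), fibroblasts (7) and endothelium (6) passed the filter, as did 7 of 8 of airway epithelium. Markers of other organs were high on 1 or more arrays, and those of thyroid on all 4. The summed signal of 4 placental genes was 248 and 520 on the wild-type arrays, 228 on labelled knockout replicate 1 and 99711 on labelled knockout replicate 2. That of 5 thymocyte genes was 3456 and 10856 in wild type against 22305 and 8017 in the labelled knockout, and that of 3 heart genes was 30640, 13401, 51387 and 1253 in the same order. Skin keratinocyte genes summed to 1961 and 26016 in wild type against 1998 and 10702 in the labelled knockout, and liver and yolk sac genes to 676, 42466, 2139 and 30713 in that order. Salivary gland genes summed to 1022, 32297, 15106 and 6511, and bone genes to 524, 454, 502 and 6686. Thyroid genes summed to 22240 and 29548 in wild type against 20640 and 15744 in the labelled knockout, most of it from Tg. They were lower in 3 of 3 genes, against 44.1% of all genes tested. Thymic epithelium genes summed to 1805 and 4600 against 14629 and 7966, with 4 of 4 higher. The part of these transcripts in the differences below was not tested, and values without single arrays are given beside several differences that lean on 1 array.

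No call was made for any of the 41 matrix genes when the labelled knockout was set against wild type. With limma and Benjamini-Hochberg adjustment over 11694 genes, 0 of 41 had an adjusted p under 0.05, the background being 0% of all genes. At an unadjusted p under 0.05 there were 2 of 41, Col12a1 and Col18a1, against 4.58% of all genes. The groups did not overlap for 11 of 41 genes, 7 lower and 4 higher in the labelled knockout, or 26.8% of them. Among all genes tested 36.1% did not overlap, 14.6% lower and 21.5% higher. The share of the matrix genes was below that background.

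Differences below are log2 differences of signal + 16, labelled knockout minus wild type. By this measure 26 of the 41 genes were lower and 15 higher, or 63.4% lower against 44.1% of all genes tested. The median was -0.05 against 0.04 for all genes, with 0.03 for number 1, meaning the labelled knockout minus the wild-type array of that replicate number, and -0.06 for number 2. When each array was centred on its own median, the median of all genes moved from 0.04 to 0.27 and that of the matrix genes to 0.18. Then 11 of 41 were lower, against 17.4% of all genes tested. Under both scalings the matrix median was below that of all genes. The median signal was 459 and 416 on the wild-type arrays, 426 on labelled knockout replicate 1 and 320 on labelled knockout replicate 2. Without wild-type replicate 2 the matrix median was 0.05 with 15 genes lower, against 0.02 and 48.1% for all genes. Without wild-type replicate 1 it was -0.16 with 29 lower, against 0.06 and 42.8% for all genes. The sign of the median thus depended on the scaling and on single arrays.

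**Figure D1:**
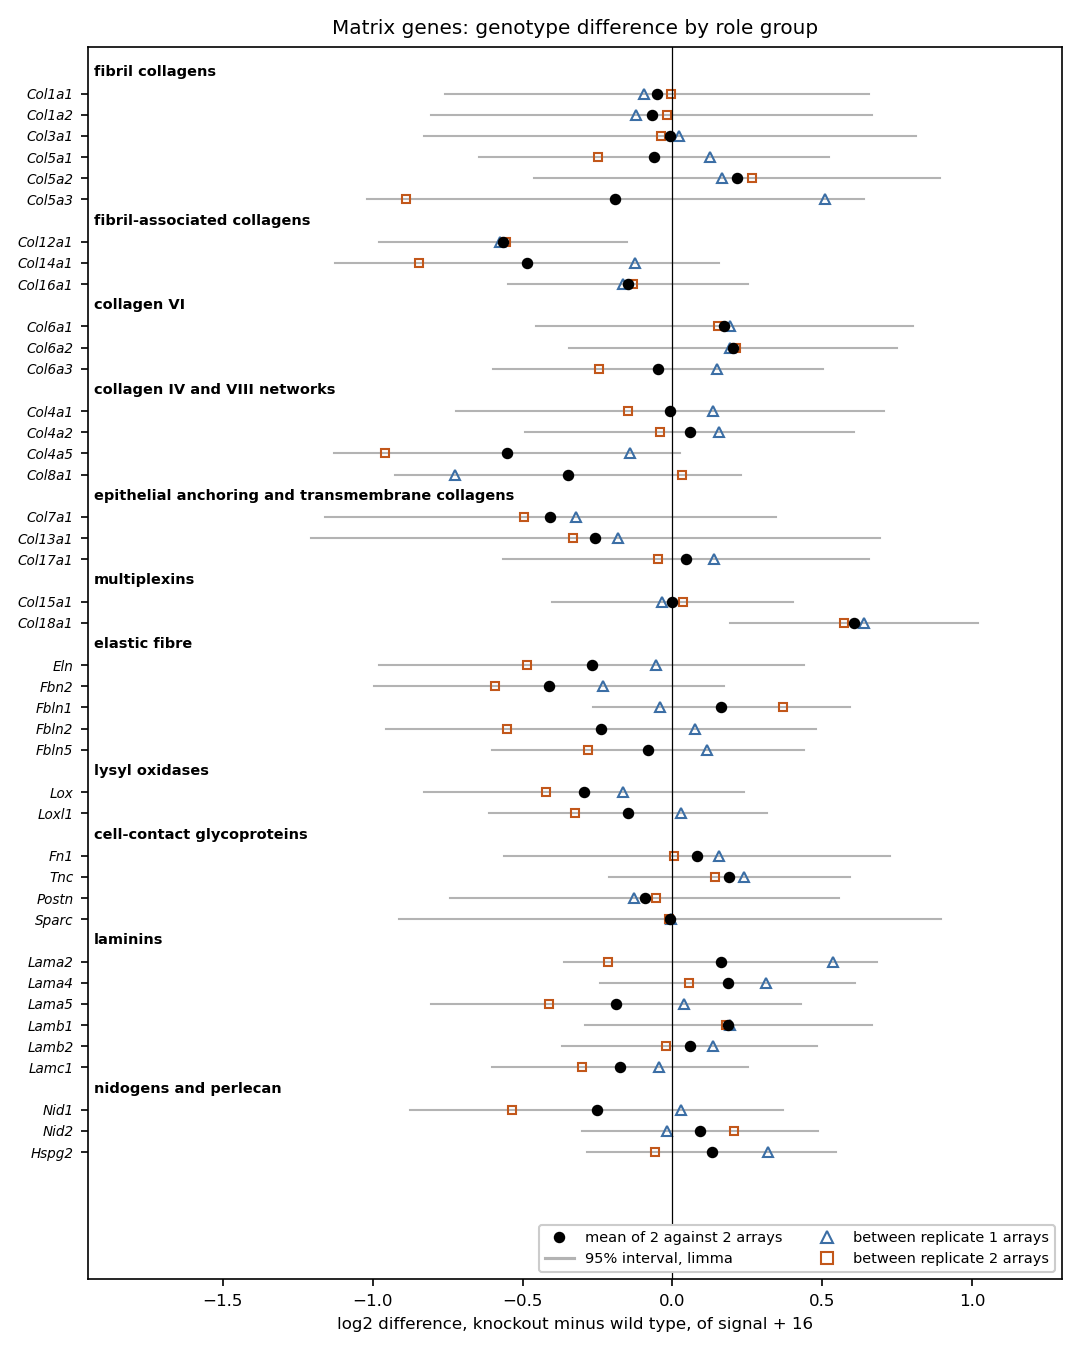
Log2 difference of signal + 16, labelled knockout minus wild type, for the 41 matrix genes above the filter, grouped by role. Filled circles are the difference of the means of 2 arrays each with its 95% interval from limma (grey line), triangles the difference for replicate number 1 and squares that for number 2. Only the intervals of Col12a1 (-0.98 to -0.15) and Col18a1 (0.19 to 1.02) lie on 1 side of 0 before adjustment, and the triangle and square nearly coincide for both.

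The main fibril collagens read almost the same in both genotypes and differed more between the arrays of 1 genotype. Col1a1 and Col1a2, the chains of collagen I, read 21301 and 26401, and 23060 and 28639, in wild type. In the labelled knockout Col1a1 read 19939 and 26299, and Col1a2 read 21214 and 28276. Replicate 2 was the higher array in both genotypes for both genes, and the groups overlapped. The differences were -0.05 (SE 0.30, 95% interval -0.76 to 0.66) for Col1a1 and -0.07 (SE 0.31) for Col1a2, with adjusted p-values of 0.982 and 0.98 in the limma fit. Col3a1, the collagen III chain that mixes into the same fibrils, read 24252 and 34058 in wild type against 24640 and 33172 in the labelled knockout, a difference of -0.01. Its second probe set read 20845 and 23630 against 18569 and 16977 without overlap, a difference of -0.32, and that of Col1a1 had 0.19.

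Collagen V, which starts fibrils and limits their width, gave differences that depended on the chain and the probe set. Col5a1 read 8532 and 12871 in wild type against 9314 and 10834 in the labelled knockout, a difference of -0.06. Its dimmest probe set read 6645 and 7653 against 4482 and 5161, without overlap, a difference of -0.57. Col5a2 had 2 probe sets of nearly equal mean signal that pointed in opposite directions. The one with the higher mean read 10396 and 14592 against 11653 and 17552, a difference of 0.22, and the other read 13844 and 14787 against 12176 and 12221, a difference of -0.23. Col5a3, a further chain of collagen V, read 1744 and 2285 against 2489 and 1225, the widest split of the fibril collagens, with 0.51 for number 1 and -0.89 for number 2. Its difference was -0.19, with -0.70 without labelled knockout replicate 1 and 0.32 without labelled knockout replicate 2. In all 6 fibril collagen genes the spread between replicates, the mean size of the replicate 2 minus replicate 1 difference in the 2 genotypes, was larger than the genotype difference. The same held for 30 of the 41 matrix genes and for 63.9% of all genes.

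Fibril-associated collagens, which sit on fibril surfaces and link them to neighbouring matrix, were lower without overlap of the groups in 3 of 3 genes, against 14.6% of all genes tested, and none passed the test. Their median difference was -0.48, but -0.10 without labelled knockout replicate 2. With arrays centred 2 of the 3 were lower with a median of -0.25, against 17.4% and 0.27 for all genes. Col12a1, abundant in perichondrium and dense connective tissue, read 8802 and 7834 in wild type against 5901 and 5325 in the labelled knockout. Means were 8318 ± 685 and 5613 ± 407 (SD, n = 2 each). The groups were well apart, and the 2 replicate numbers gave nearly the same difference, -0.58 and -0.56. The difference of the means was -0.57 (SE 0.18). In limma its p was 0.0143, with an adjusted p of 0.875. Leaving out 1 array at a time gave -0.48 to -0.65, and array centring gave -0.33. The 3 further probe sets of Col12a1 were below the filter, with differences of -0.32, -0.73 and -1.12.

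Col14a1, a related collagen of tendon and skin, was low mainly on 1 array. It read 8603 and 8088 in wild type against 7888 and 4497 in the labelled knockout, a difference of -0.48 (SE 0.27). It was -0.12 for number 1 and -0.84 for number 2. Without labelled knockout replicate 2, the array with placental transcripts, the difference was -0.08, and without labelled knockout replicate 1 it was -0.89. Each of these values leaves 1 labelled knockout array. Its second probe set had -0.18. Col16a1 read 4397 and 3999 against 3923 and 3653, close groups that did not overlap, a difference of -0.15 (SE 0.17). The fibroblast markers, from cells that make these collagens, were lower in 7 of 7 genes, against 44.1% of all genes tested. Their median difference was -0.16. Array centring raised every gene alike, by more than the size of this median, and moved the median of all genes from 0.04 to 0.27. The distance between these medians stayed as it was. The summed signal of the fibroblast markers was 64149 and 77475 in wild type against 57299 and 64977 in the labelled knockout. Their part in these differences was not tested.

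Collagen VI forms beaded filaments around cells, from the products of Col6a1, Col6a2 and Col6a3. Col6a1 read 12977 and 17371 in wild type against 14843 and 19322 in the labelled knockout, a difference of 0.17 (SE 0.27). Its neighbour Col6a2 read 12685 and 14963 against 14480 and 17339, a difference of 0.20 (SE 0.23). Both genes were higher in the labelled knockout within each replicate number, by 0.15 to 0.21, while the groups overlapped and replicate 2 was above replicate 1 in both genotypes. A second Col6a2 probe set gave 0.18. Col6a3, which lies on another chromosome, read 12447 and 16480 against 13812 and 13902, a difference of -0.05.

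The collagen IV pair with the overlapping promoter windows printed above also read alike in both genotypes. Col4a1 read 14462 and 22493 in wild type against 15898 and 20275 in the labelled knockout, a difference of -0.01 (SE 0.30, 95% interval -0.72 to 0.71). Col4a2 read 14870 and 17578 against 16581 and 17077, a difference of 0.06 (SE 0.23). For both genes the difference was above 0 for number 1 (0.14 and 0.16) and below 0 for number 2 (-0.15 and -0.04). A dimmer Col4a1 probe set read 9966 and 10996 against 9004 and 8905 without overlap, a difference of -0.22.

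Col4a5, a chain of the collagen IV molecules of specialised basement membranes, was lower on both labelled knockout arrays. It read 9154 and 10362 in wild type against 8288 and 5321 in the labelled knockout. Means were 9758 ± 854 and 6805 ± 2098 (SD, n = 2 each). The difference was -0.55 (SE 0.24, adjusted p = 0.875 in limma), and its other probe set gave -0.43. As for Col14a1, labelled knockout replicate 2 was the lowest array. The difference was -0.23 without it and -0.87 without labelled knockout replicate 1, each with 1 labelled knockout array left. Col8a1, a short-chain collagen of vessel walls, showed the reverse arrangement. It read 8035 and 7598 in wild type against 4851 and 7763 in the labelled knockout, low on labelled knockout replicate 1 alone, with -0.73 for number 1 and 0.03 for number 2. The difference was -0.35 (SE 0.25), and it was -0.01 without labelled knockout replicate 1. Its 2 dimmer probe sets above the filter were lower on both labelled knockout arrays, with differences of -0.67 and -0.95.

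Airway smooth muscle markers were lower in 6 of 7 genes, against 44.1% of all genes tested, with a median difference of -0.30. Their medians differed in sign between the replicate numbers, at 0.27 for number 1 and -0.77 for number 2. Their summed signal was 43032 and 61756 in wild type against 48015 and 42632 in the labelled knockout. Airway epithelium markers were lower in 7 of 8, against the same 44.1%, with a median of -0.34. Their sums were 45855 and 61766 in wild type against 38276 and 42094 in the labelled knockout. Cartilage markers were lower in 6 of 8, with a median of -0.20 and sums of 87818 and 105008 against 70834 and 104051. The rise that array centring gave every gene was larger than the size of the cartilage median. It left the distance from the median of all genes as it was. Skeletal muscle markers were lower in 1 of 6, with a median of 0.08. Whether the levels of these markers bear on Col4a5, Col8a1, Col12a1 and Col14a1 was not tested.

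Col18a1 had the largest upward difference of the 41 genes. It encodes collagen XVIII, a heparan sulphate proteoglycan of basement membranes whose C-terminal fragment is endostatin. Its brightest probe set read 2312 and 2410 in wild type against 3610 and 3591 in the labelled knockout. Means were 2361 ± 69.7 and 3601 ± 13.4 (SD, n = 2 each). All 4 arrays fell into 2 tight pairs by genotype label. The difference was 0.61 (SE 0.18), with 0.64 and 0.57 within the replicate numbers. In limma its p was 0.0105, with an adjusted p of 0.875. A second probe set read 2249 and 2075 against 3103 and 2906, a difference of 0.47. Leaving out 1 array at a time gave 0.58 to 0.64, and array centring gave 0.84. Endothelial markers were lower in 6 of 6 genes, against 44.1% of all genes tested, with a median of -0.14. Array centring raised every gene alike, by more than the size of this median, and left its distance from the median of all genes as it was. The part of these markers in the value of Col18a1 was not tested.

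Its relative Col15a1, the other collagen of this family, read 3949 and 3573 against 3853 and 3661, a difference of 0.00 (95% interval -0.40 to 0.40). The 2 differences of this family were not tested against each other. Col18a1 lies on chromosome 10 close to Col6a1 and Col6a2, and all 3 genes were higher on the labelled knockout array within each replicate number. Among all genes 36% were higher within both numbers. The groups of Col6a1 and Col6a2 overlapped. Col6a1 was at -0.04 without wild-type replicate 1 and at -0.02 without labelled knockout replicate 2. Whether position bears on these values was not tested.

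The collagens that anchor epithelium and cells had overlapping groups in 3 of 3 genes, where 36.1% of all genes tested did not overlap. Col7a1, which forms the anchoring fibrils under stratified epithelium, read 785 and 613 in wild type against 625 and 430 in the labelled knockout, a difference of -0.41 (SE 0.32). Col13a1 and Col17a1, transmembrane collagens of cell adhesion sites, had differences of -0.26 and 0.05 with SEs of 0.40 and 0.26.

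**Figure D2:**
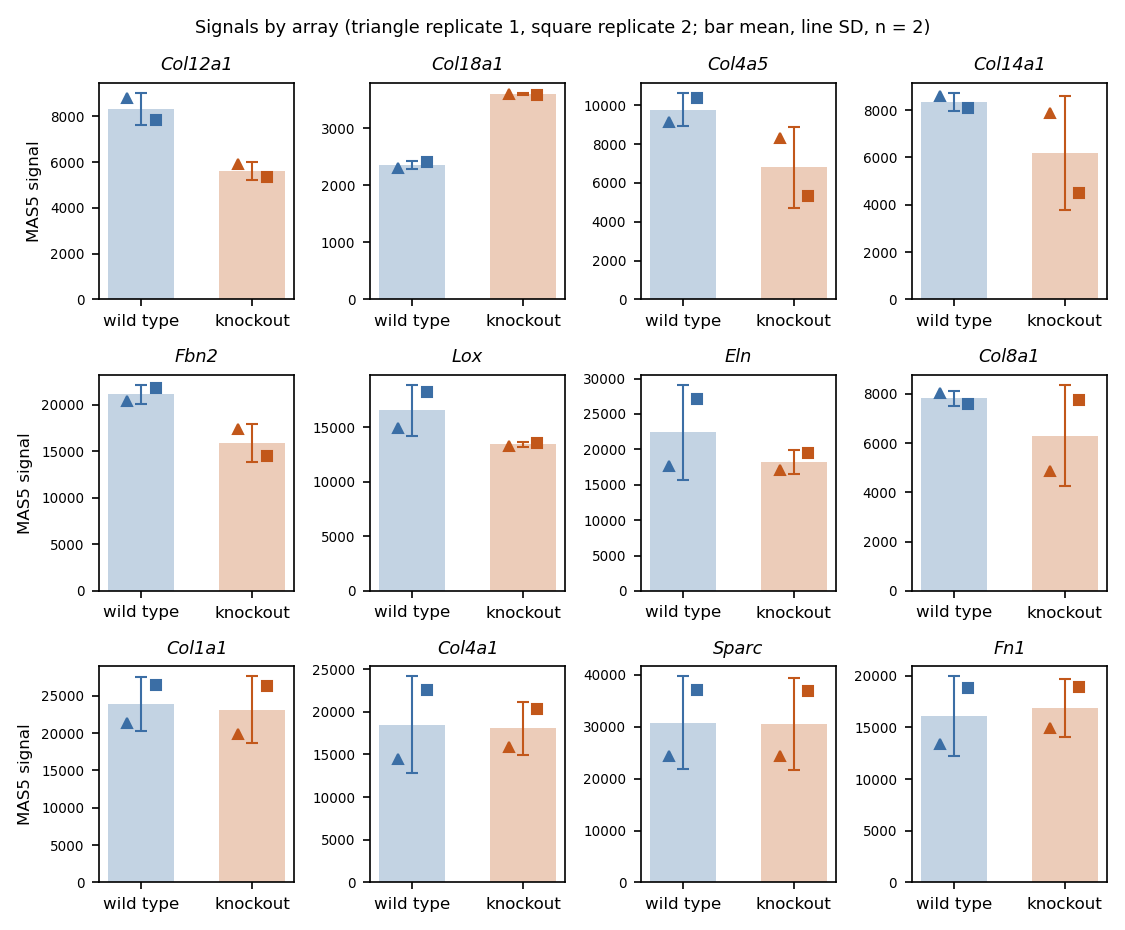
MAS5 signal (linear axis from 0) of 12 matrix genes in wild type (blue) and labelled knockout (orange), with triangles for replicate 1, squares for replicate 2, bars for the mean and lines for the SD of 2 arrays. Col12a1 and Col18a1 separate by genotype on both replicate numbers, Col4a5 and Col14a1 are lowest on labelled knockout replicate 2, Col8a1 on labelled knockout replicate 1, and Col1a1, Col4a1, Sparc and Fn1 differ mainly between replicate 1 and replicate 2.

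Elastic fibre genes were lower in 4 of 5 genes, against 44.1% of all genes tested, with a median difference of -0.24, and none passed the test. Without wild-type replicate 2, 2 of the 5 were lower with a median of 0.03, against 48.1% of all genes. Without labelled knockout replicate 2, 3 of the 5 were lower with a median of -0.07, against 42.8% of all genes. With arrays centred, 3 of the 5 were lower with a median of -0.01. For all genes centring gave 17.4% lower and a median of 0.27. Eln, which encodes elastin, read 17691 and 27150 in wild type against 17015 and 19412 in the labelled knockout. The array with the highest signal was wild-type replicate 2, and the other 3 were close to each other. The difference was -0.27 (SE 0.30), with -0.06 for number 1 and -0.48 for number 2, and without wild-type replicate 2 it was 0.04. The second Eln probe set repeated this arrangement, with 2470 and 4549 in wild type against 2639 and 2471 in the labelled knockout.

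Fbn2, the fibrillin of embryonic microfibrils, read 20413 and 21867 in wild type against 17370 and 14493 in the labelled knockout. The groups did not overlap, and the difference was -0.41 (SE 0.25, adjusted p = 0.875 in limma), with -0.23 and -0.59 within the replicate numbers. Its second probe set read 10321 and 13537 against 10664 and 13168 with overlap, a difference of 0.00, so the 2 probe sets of this gene disagreed. Among the fibulins, which tether elastin to microfibrils or basement membranes, Fbln1 had 0.16, Fbln2 -0.24 and Fbln5 -0.08, with overlapping groups in each. Fbln2 had -0.67 without labelled knockout replicate 1 and 0.20 without labelled knockout replicate 2. Fbln1 was 0.32 and 0.02 on its other probe sets above the filter.

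Lysyl oxidases, the enzymes that cross-link collagen and elastin, were lower in both measured genes, against 44.1% of all genes tested. Lox read 14874 and 18188 in wild type against 13251 and 13574 in the labelled knockout, without overlap, a difference of -0.29 (SE 0.23), or -0.15 without wild-type replicate 2. Its second probe set gave a larger difference in the same direction, with 7975 and 13971 against 5526 and 7198, or -0.74. Loxl1, which acts on elastic fibres, had -0.15, and its dimmer probe set had -0.32. With arrays centred on their medians Lox was at -0.06 and Loxl1 at 0.08, beside a median of 0.27 for all genes.

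Matrix glycoproteins that bind cells and fibrils had differences of -0.09 to 0.19. Fn1, fibronectin, read 13383 and 18818 in wild type against 14919 and 18884 in the labelled knockout, a difference of 0.08 (SE 0.27). Sparc, a collagen-binding protein of bone and connective tissue, read 24418 and 37099 against 24311 and 36844, a difference of -0.01 (SE 0.38). For Sparc the step from replicate 1 to replicate 2 was 0.60 in both genotypes, and the labelled knockout and wild-type arrays of the same number differed by 0.01.

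Postn, periostin of perichondrium and fibrous tissue, read 19850 and 23558 in wild type against 18158 and 22667 in the labelled knockout, a difference of -0.09. Tnc, tenascin C of growing mesenchyme, read 6754 and 7305 against 7964 and 8066, without overlap, a difference of 0.19 (SE 0.17). Its second, dimmer probe set had -0.36.

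Laminins are trimers of an alpha, a beta and a gamma chain, and 6 of the 7 genes were tested. Lama4, the alpha chain of vessels and muscle, read 7508 and 8433 in wild type against 9319 and 8770 in the labelled knockout, a difference of 0.18 (SE 0.18), but its dimmer probe set had -0.77. Lamb1 read 10754 and 11974 against 12300 and 13570, a difference of 0.19 (SE 0.20), with 0.06 and -0.35 on 2 others. Lamc1, the common gamma chain, read 8316 and 9566 against 8053 and 7761, a difference of -0.17 (SE 0.18). The groups did not overlap for these 3 of the 6 genes, against 36.1% of all genes tested, and each difference was about the size of its SE.

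Lama2, of muscle and nerve basement membranes, had 0.54 for number 1 and -0.21 for number 2. Lama5, of epithelial basement membranes, read 2379 and 2094 against 2443 and 1569, with 0.04 and -0.41. The numbers thus differed in sign for both alpha chains, and Lamb2 had 0.14 and -0.02. Nid1, a nidogen that bridges laminin and collagen IV, read 13747 and 20406 in wild type against 14032 and 14076 in the labelled knockout. As for Eln, wild-type replicate 2 alone was high, and the difference was -0.25 (SE 0.26), or 0.03 without that array, with -0.68 and -0.59 on dimmer probe sets. Hspg2, which encodes the proteoglycan perlecan, read 4620 and 5247 against 5767 and 5041, a difference of 0.13 (SE 0.18). Nid2, the second nidogen, had 0.09 (SE 0.17).

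The difference between arrays of the same genotype followed the signal of the probe set. When all genes tested were put into 10 bins of nearly equal size by mean signal, 19 of the 41 matrix genes were in the brightest. In that bin the median replicate 2 minus replicate 1 difference was 0.28 for wild type against 0.31 for the labelled knockout. In the dimmest bin these medians were -0.16 and -0.22. Replicate 2 was above replicate 1 in both genotypes for 19 of the 41 matrix genes, against 26.2% of all genes tested. Signals of different probe sets do not compare transcript amounts. The labels do not say what the replicate numbers stand for. The 9 hybridization controls had a geometric mean signal of 4787 on wild-type replicate 1 and 11598 on wild-type replicate 2. On labelled knockout replicates 1 and 2 this mean was 4744 and 14007. Whether this step bears on the differences between arrays of the same genotype was not tested.

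**Figure D3:**
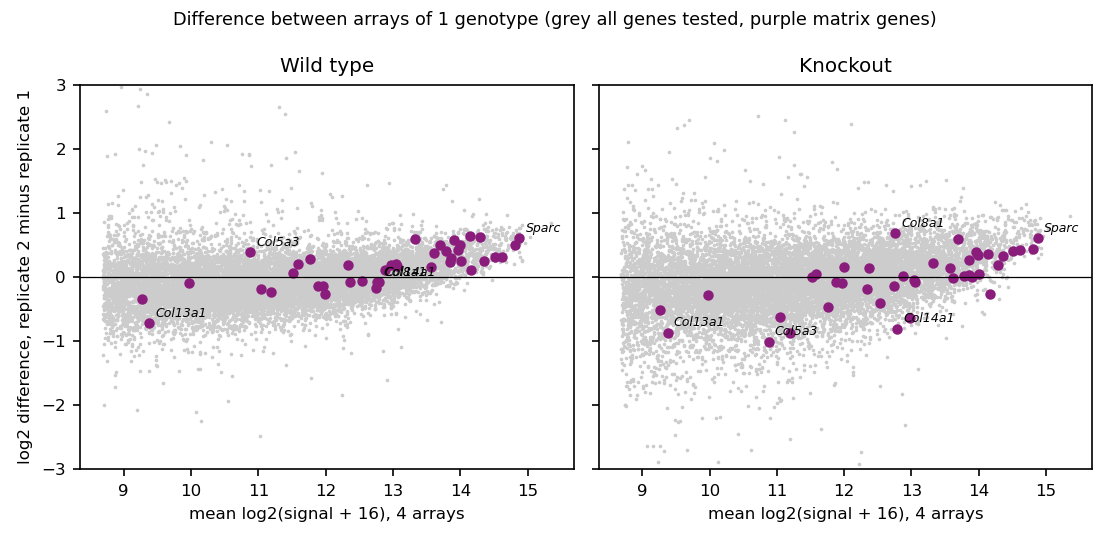
Log2 difference between replicate 2 and replicate 1 within wild type (left) and labelled knockout (right) against the mean log2(signal + 16), for all 11694 genes tested (grey) and the 41 matrix genes (purple). The axis ends at 3 in both directions, which leaves out 24 and 28 genes, none of them a matrix gene. Bright matrix genes such as Sparc lie above 0 in both panels, and Col14a1 lies near 0 in the left panel (-0.09) and at -0.81 in the right.

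Other probe sets of the same genes often gave another value. Beside the brightest ones, 31 probe sets of 25 matrix genes were above the filter. Their median difference was -0.23, against -0.05 for the brightest probe sets of the same 25 genes. For all genes these medians were -0.08 and 0.02. Of the 31, 22 had a lower difference than the brightest probe set of their gene, or 71.0% against 62.0% for all genes. The sign was opposite for 10 of the 31, or 32.3% against 35.8%. The 10 genes were Col1a1, Col1a2, Col5a2, Fbn2, Fn1, Tnc, Sparc, Lama4, Lamb1 and Hspg2. For Fn1 the values were 0.08 and -0.44, and for Hspg2 0.13 and -0.09. Col18a1, Col6a2, Col4a5, Lox, Eln, Col8a1 and Nid1 had the same sign on all probe sets above the filter. So did Col3a1, Col5a1, Col14a1, Col4a1, Fbln1, Loxl1, Lama5 and Lamc1. For actin, the 3' probe set over the 5' one, which rises as RNA or cDNA gets shorter, gave 1.69 and 1.66 in wild type against 1.90 and 1.97 in the labelled knockout. Gapdh gave 1.26 and 1.40 against 1.36 and 1.61, with overlapping groups. Their part in the disagreement of probe sets was not tested.

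**Figure D4:**
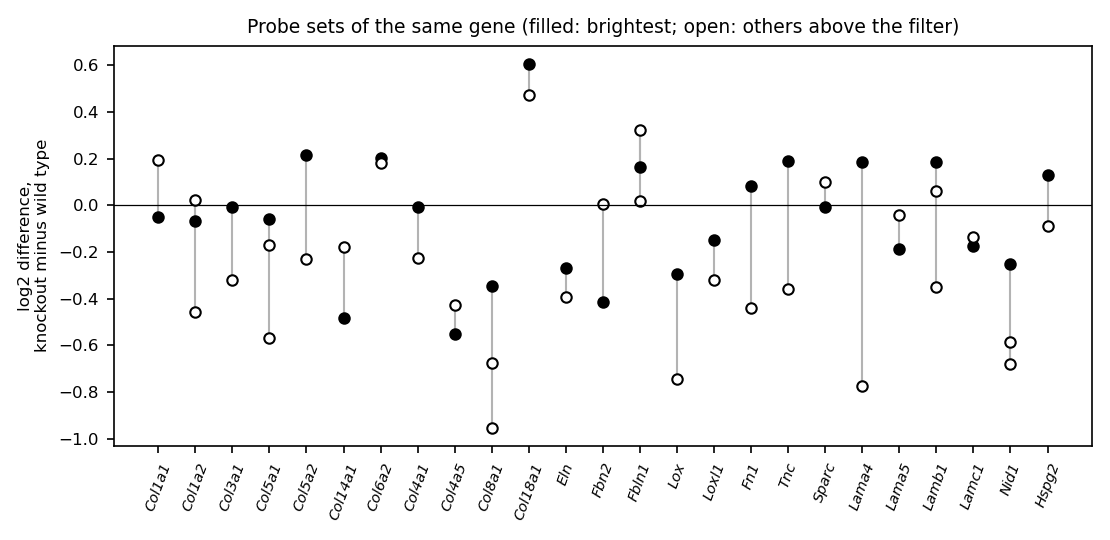
Log2 difference of signal + 16, labelled knockout minus wild type, for each probe set above the filter of the 25 matrix genes with more than 1. Filled circles are the brightest probe set of a gene and open circles the others. Both circles of Col18a1 lie above 0.4, those of Lox, Eln and Col4a5 lie below 0, and those of Lama4 and Col5a2 lie on both sides of 0.

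Genes that act with these proteins were also read from the same fit, and none passed the test. Of 22 tested genes of collagen processing and trafficking, 7 were lower and 15 higher, with a median difference of 0.09. The median was -0.05 for number 1 and 0.20 for number 2. Among all genes tested 44.1% were lower. Plod2, a lysyl hydroxylase that prepares collagen for cross-linking, read 4949 and 3766 in wild type against 3535 and 3020 in the labelled knockout, a difference of -0.40. Colgalt2 and Pcolce2, a collagen glycosyltransferase and a procollagen processing enhancer, had -0.48 and -0.43 without overlap of the groups. Adamts3, a procollagen N-proteinase, had -0.34 with overlap.

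Other fibre and basement membrane components were lower in 19 of 26 tested genes, against 44.1% of all genes, and 0 were called. Their median was -0.19 beside 0.04 for all genes, with -0.07 for number 1 and -0.24 for number 2. Array centring raised every gene alike, by more than the size of this median, and moved the median of all genes from 0.04 to 0.27. The distance between these medians stayed as it was. Col4a4, a collagen IV chain of specialised basement membranes like Col4a5, read 816 and 800 in wild type against 534 and 222 in the labelled knockout, a difference of -1.19. As for Col4a5, labelled knockout replicate 2 was the lowest array, and without it the difference was -0.58. Thbs1, a matricellular regulator of TGF-beta, read 4804 and 3604 against 2569 and 3063, a difference of -0.57. Tnxb, tenascin X of collagenous tissue, had -0.69, with 0.03 for number 1 and -1.42 for number 2, and -0.08 without labelled knockout replicate 2. Emilin1, of elastic fibres, had 0.33.

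Matrix receptors were lower in 13 of 21 tested genes, against 44.1% of all genes, with a median of -0.14, and 0 were called. The median was -0.09 for number 1 and -0.17 for number 2. The rise that array centring gave every gene was again larger than the size of the receptor median. It left the distance from the median of all genes as it was. Cd44, a receptor for hyaluronan, read 6591 and 8140 in wild type against 4709 and 5335 in the labelled knockout, a difference of -0.55. Ddr2, a receptor for fibril collagens, read 8139 and 8461 against 6582 and 6828, a difference of -0.31, nearly the same in both replicate numbers. Itga8, an integrin chain of mesenchyme and smooth muscle, had -0.46, or -0.13 without labelled knockout replicate 2, and Itga4 had 0.29. In each of these 3 lists the 4 genes named had the smallest unadjusted p, and their adjusted p in limma was 0.875.

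At 2 arrays per genotype the precision was limited. Over all genes the median SE was 0.241 and the median half-width of a 95% interval 0.569. With 2 arrays on each side, the smallest two-sided p of an exact permutation test is 0.333. Values near 0 such as those of Col1a1, Col3a1 and Sparc therefore do not show that these genes were equal in the 2 genotypes.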

How the data were processed

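The authors deposited linear intensity values, 1 for each probe set of each array. The submitters' processing notes name MAS5, with no version or settings in the sources used here. Per the labels' protocols, 50 ng of total RNA was amplified to cDNA by SPIA, and 3.75 µg was biotin labelled. The deposited intensity values had a mean of 1500 on each array after trimming 2% from each end. No detection calls were used, and MAS5 is noisy for dim probe sets.

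Of 45101 probe sets, 34945 had exactly 1 gene in the platform annotation, and symbols were updated through the RefSeq table of GRCm38.p6. Log2(signal + 16) went into lmFit and eBayes with an intensity trend (limma 3.58.1, R 4.3.3), with all 4 arrays, genotype as the only term, and Benjamini-Hochberg adjustment over 11694 genes at 0.05. Fold changes on this scale understate differences of dim genes. The test was checked on simulated data. The members and lists were chosen with earlier results of these data known. Values were named for genes with non-overlapping groups and an absolute difference of at least 0.3, for Col1a1, Col1a2, Col3a1, Col4a1, Col4a2, Eln, Fn1, Sparc, Tnc and Postn, for the largest difference of each role group, for genes whose probe sets differ in sign, and for 4 genes of each further list. Other values were chosen after they were seen. Alternatives were the pseudocount, the filter, the normalization, weights for arrays, no intensity trend, blocking on the replicate number, averaged probe sets, and each array left out. Figures were drawn with matplotlib 3.10.9.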

Additional observations from a re-analysis of the deposited data

How the results depend on the processing

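No matrix gene passed the test with limma under a pseudocount of 1 or 64, no filter, the 75th percentile filter, quantile normalization, array centring, weights for arrays, no intensity trend, averaged probe sets or the replicate number as a block. Leaving out 1 array gave 0 to 492 called genes over the whole array, where 0 were called with all arrays and 536 had an unadjusted p under 0.05. The 492 came without labelled knockout replicate 1, when Col14a1 and Col4a5 were the 2 matrix genes called, and 104, none of them a matrix gene, without labelled knockout replicate 2, and the cause of these counts was not tested. The median of the matrix genes then ran from -0.16 to 0.054 and the number lower from 15 to 29. Of all genes, 42.8% to 48.1% were lower in these fits. Array centring turned the median to 0.18 with 11 genes lower, against 0.27 and 17.4% lower for all genes. The mean of all probe sets gave -0.13 over 38 genes. Fbln5 moved most, from -0.08 to -0.84, with Col14a1 at -0.84, Nid1 at -0.51, Col5a1 at -0.27, Col8a1 at -0.66, Lox at -0.66 and Fbn2 at -0.20. For Fbln5, Col14a1 and Lox the mean includes a probe set below the filter, with -1.60, -1.87 and -0.95. That of Fbln5 read 213 and 187 in wild type against 196 and 7.73 in the labelled knockout. That of Col14a1 read 167 and 697 against 99.5 and 68.5. The replicate numbers do not pair the samples by any label. As a block, the number left every difference as it was, called 0 genes and gave Col12a1 an adjusted p of 0.411, and deviations of same-numbered arrays correlated at 0.32 over genes. Of the 41 genes, 13 kept their sign under all 14 alternatives that included them: Col12a1, Col14a1, Col4a5, Col7a1, Col8a1, Fbn2 and Lox lower, and Col6a2, Col18a1, Fbln1, Lamb1, Nid2 and Hspg2 higher. With arrays centred, 15 genes turned to higher values, in step with the move of the median of all genes: Col1a1 0.18, Col1a2 0.16, Col3a1 0.22, Col5a1 0.17, Col5a3 0.042, Col16a1 0.085, Col6a3 0.18, Col4a1 0.23, Col15a1 0.23, Fbln5 0.15, Loxl1 0.084, Postn 0.14, Sparc 0.22, Lama5 0.045 and Lamc1 0.058. Quantile normalization took the other probe set of Col5a2, with -0.29. The mean of all probe sets turned Col1a1 to 0.071, Col5a2 to -0.0072, Fn1 to -0.18, Tnc to -0.084 and Lama4 to -0.30. Leaving out 1 array at a time changed the sign of 24 genes, all with differences that missed the test. Their ranges were Col1a1 -0.25 to 0.15, Col1a2 -0.28 to 0.14, Col3a1 -0.25 to 0.24, Col5a1 -0.36 to 0.24, Col5a2 -0.080 to 0.51, Col5a3 -0.70 to 0.32, Col6a1 -0.037 to 0.38, Col6a3 -0.25 to 0.15, Col4a1 -0.32 to 0.31, Col4a2 -0.063 to 0.18, Col13a1 -0.69 to 0.18, Col17a1 -0.095 to 0.19, Col15a1 -0.072 to 0.072, Eln -0.58 to 0.039, Fbln2 -0.67 to 0.20, Fbln5 -0.27 to 0.10, Loxl1 -0.36 to 0.060, Fn1 -0.16 to 0.33, Postn -0.25 to 0.068, Sparc -0.31 to 0.29, Lama2 -0.072 to 0.39, Lama5 -0.50 to 0.13, Lamb2 -0.039 to 0.15 and Nid1 -0.54 to 0.032. With 3 arrays the lone sample of a genotype is assumed to vary like the others. The number of arrays limits the precision, and Col13a1 had the largest SE of the 41 genes, 0.40.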
